A study of Mus musculus with 119 samples.

Results

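The comparison described here is that of wild-type (WT) bone marrow-derived macrophages (BMDMs) given LPS for 1 h with unstimulated WT BMDMs. Its members were the 12 libraries of a series of 119 whose labels name WT cells, replicates 4 to 9, without LPS (n = 6) or at 1 h of LPS (n = 6). The cells came from mice of the strain C57BL/6(NIMR), carried no engineered allele and received no inhibitor. Bone marrow cells had been grown into macrophages in medium conditioned by L cells, which release the growth factor CSF1, and were kept overnight in low serum before LPS was added at 100 ng/ml. No source used here gives the age or sex of the mice. WT libraries at 0.5 h (n = 6) and 2 h (n = 4) of LPS, and Map3k8 D270A libraries without LPS (n = 6) and at 1 h (n = 6), served for comparison. The D270A allele encodes a form of the kinase TPL-2 without catalytic activity, and these mice are of the same strain. The methods call the libraries biological replicates. Nothing states that each came from another mouse, so the p values measure the spread between libraries only. That spread, and with it each SE below, was estimated over the 62 libraries of WT, Map3k8 D270A and Elk1-/-Elk4-/- cells without LPS and at 0.5, 1 and 2 h, and not over the 12 alone.

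LPS is a component of the outer membrane of Gram-negative bacteria. It is handed by CD14 to the receptor TLR4 and its partner MD-2, which signal through the adaptors MyD88 and TRIF to NF-κB, to the MAP kinases ERK, JNK and p38, and to IRF3. Macrophages answer with primary response genes, transcribed from factors already present in the cell, and then with secondary genes that need newly made proteins such as IFN-β. Many primary transcripts are short-lived, and the inhibitors that end the response are induced together with the cytokines.

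The deposited values are normalised and on a log2 scale, by a transformation that the sources used here do not name. A level below is such a value, and a difference is the mean level at 1 h minus the mean unstimulated level. Low values may have been drawn together by the transformation, so differences are given on this scale and not as fold changes. The methods state a typical yield of reads, but the depth of each library cannot be read from these values, and the spread between replicates set the precision. The library medians lay between 9.05 and 9.10, and no pair of libraries was identical. The cells matched their label: all 8 macrophage markers were among the genes tested, and their summed level was 18.6 to 18.8 without LPS and 18.7 to 18.9 at 1 h. Neutrophil markers summed to 9.19 to 10.0 and 9.19 to 10.2, with 7 of 10 tested and Ly6g, Mpo and Elane under the filter. Mmp8, with mean levels of 9.19 and 9.18, made up most of this sum, and no other neutrophil marker was above a mean of 5.17 without LPS or 5.51 at 1 h. Dendritic cell markers summed to 5.14 to 5.23 and 5.44 to 5.70, with 3 of 8 tested, no overlap between the groups, and Flt3, Cd209a, Itgae, Clec9a and Siglech under the filter. Of the T cell, B cell and fibroblast markers 1 each was tested, and of the erythroid and mast cell markers none. In bulk RNA, fewer cells of a type and less RNA per cell cannot be told apart, and the part of these markers in the results was not tested. Rn45s, the ribosomal RNA precursor, stood at 19.38, 19.25 and 18.49 at 1 h in replicates 4, 6 and 7 and at 14.88 to 15.39 in the other 3, against 15.19 to 15.78 without LPS. Its difference of 1.74 (adjusted p = 0.0449, limma) was not called when any of these 3 libraries was left out. Its part in the other results was likewise not tested.

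At 1 h, 18 of 24 genes in the list of inflammatory cytokines, 5 of 8 in that of CXC chemokines, 9 of 12 in that of CC chemokines and a receptor, 6 of 7 in that of IκB proteins and 11 of 19 in that of immediate early genes and the factors upstream of them were higher. Of the 112 genes that fell, 44 were among the 292 tested whose symbol is Zfp and a number (15.1%, against 0.942% of all genes tested). This set was chosen after its values were seen. Of 11884 genes tested, 380 were higher (3.20%) and 112 were lower (0.942%), 492 in all (4.14%), where a call needed a size of at least 1 and an adjusted p below 0.05 (limma, Benjamini-Hochberg). Counts of called list members, here and below, are to be read beside these shares. The adjusted p alone was passed by 5564 genes (46.8%), 2832 of them higher and 2732 lower. The median difference was 1.72 among the genes called higher and -1.22 among those called lower, against 0.00018 over all genes tested. In the higher group 150 genes differed by at least 2, 62 by at least 3, 23 by at least 4 and 8 by at least 5. In the lower group 22 differed by at least 1.5 and 2 by at least 2, namely Arrdc3 and Txnip.

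The libraries of the 2 groups did not overlap for 374 of the 380 higher genes and for all 112 lower genes, where 15.4% and 14.3% of the genes tested were separated in these directions. The 6 exceptions were Ccr3, Lrrc32, Mmp14, Mt2, OTTMUSG00000016609 and Rn45s, which are named for this reason after their values were seen. All 6 same-numbered pairs of libraries moved in the direction of the call for 379 higher genes, Rn45s being the exception, and for all 112 lower genes. The calls rest on these same libraries, so this agreement was largely set by them and is a description. Of the higher genes, 356 had a linear value of at least 10 in every unstimulated library and 12 had it in none. Of the lower genes, 111 still had it in every library at 1 h. The calls were unevenly spread over levels. With the genes split by unstimulated level into 5 equal groups, from the lowest to the highest, 113, 67, 69, 65 and 66 genes were higher, and 41, 52, 9, 6 and 4 were lower. The unstimulated values that set these groups also enter the difference. A gene under a linear value of 10 in every unstimulated library was tested only if other libraries reached it. The count of higher genes in the lowest group is thus partly set by these rules.

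**Figure D1:**
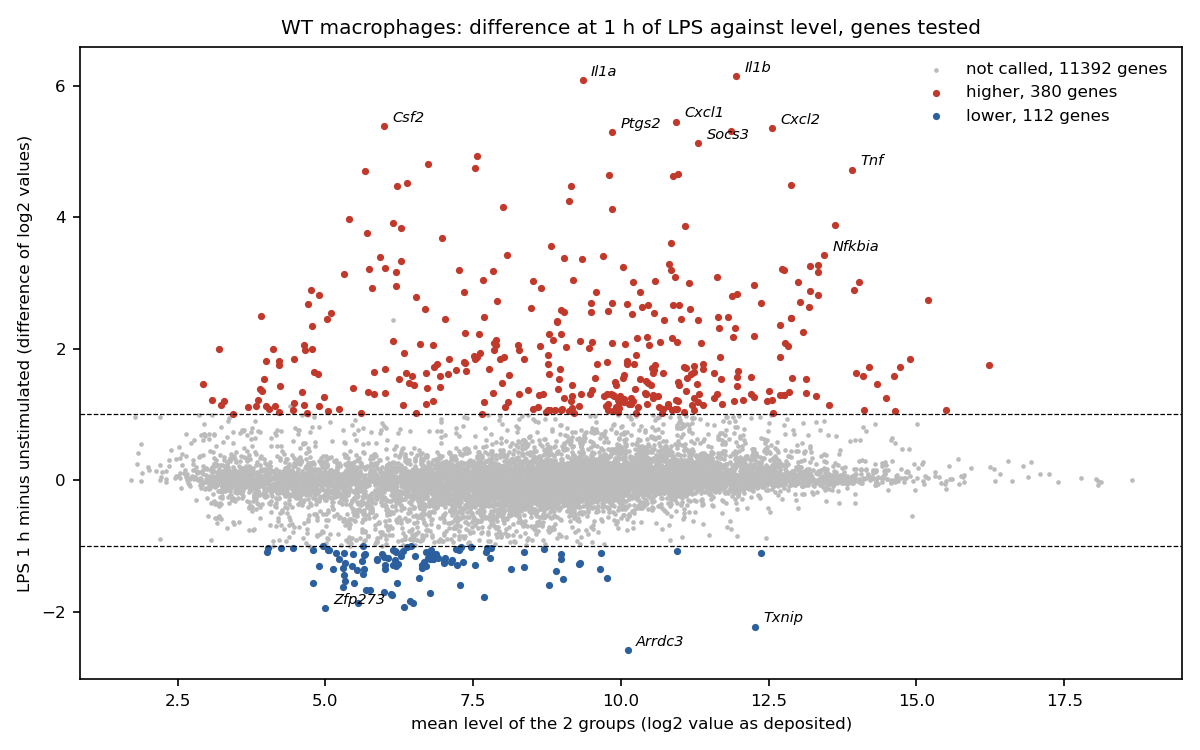
The difference at 1 h of LPS (y axis, log2 values) against the mean level of the 2 groups (x axis, log2 values) for 11884 genes in WT macrophages, with the 380 genes called higher in red, the 112 called lower in blue and dashed lines at differences of 1 and -1. The higher genes reach 6.15 and lie at all levels, while the lower genes end at -2.59 and lie mostly at low levels.

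The cytokine genes, which encode secreted signals between immune cells, held the 2 largest differences of all genes tested. Of 24 genes of this list tested, 18 were higher and none lower, and the median difference of the list was 2.81. Il1b (chr2:129364569-129371164), which encodes the fever-inducing cytokine IL-1β, had levels from 8.82 to 8.95 without LPS (median 8.87) and from 14.49 to 15.46 at 1 h (median 15.06). Every 1 h library lay more than 5 units above every unstimulated one, and the difference was 6.15 ± 0.161 (SE, n = 6 in each group, adjusted p = 2.8e-37 by limma). Il1a (chr2:129299609-129310186), its neighbour and the gene of IL-1α, ran from 6.27 to 6.37 (median 6.31) and from 11.94 to 12.74 (median 12.44), a difference of 6.08 ± 0.183 (SE, adjusted p = 1.35e-34). Beside them Il1bos, an RNA antisense to Il1b, was also higher, by 1.99. Whether the counting used the strand is not given, so reads of Il1b and Il1bos cannot be told apart.

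Tnf (chr17:35199367-35202007), the gene of tumour necrosis factor, was at 11.49 to 11.59 without LPS (median 11.54) and at 16.12 to 16.37 at 1 h (median 16.28). The libraries of a group lay close together and the groups far apart, and the difference was 4.72 ± 0.095 (SE, adjusted p = 2.28e-42). Csf2 (chr11:54247270-54249899), which encodes the growth factor GM-CSF, went from a median of 3.32 (3.15 to 3.39) to 8.75 (8.03 to 9.31), and Tnfsf9, the ligand of the T cell receptor protein 4-1BB, from 9.22 (9.18 to 9.25) to 14.54 (14.26 to 14.76). The 2 groups were apart for both, with differences of 5.39 ± 0.200 and 5.31 ± 0.130 (SE). Lif, of the IL-6 family, was higher by 3.97 and Il10, the main anti-inflammatory cytokine of the list, by 3.43 ± 0.125 (SE, adjusted p = 7.58e-31). Il12b and Il23a, which encode the subunits p40 and p19 of IL-23, were higher by 4.74 ± 0.253 and 4.70 ± 0.205 (SE). Il6 was higher by 2.68 ± 0.198 (SE) and Ifnb1, the gene of IFN-β, by 3.34 ± 0.128 (SE). Csf2, Il23a, Il6 and Lif had unstimulated levels of 3.15 to 3.61, near the linear value of 10 that the filter used, where the size of a difference depends most on the unknown transformation. The 6 cytokines that did not pass were Inhba (0.90), Vegfa (0.73), Il1rn (0.67), Il15 (0.25), Tgfb1 (0.22) and Il18 (0.16), and all but Il18 had an adjusted p below 0.05 (limma).

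Chemokines direct the migration of white cells, the CXC type mainly of neutrophils and lymphocytes and the CC type mainly of monocytes and lymphocytes. Of 8 CXC genes tested 5 were higher, and of 12 genes in the CC list, which also holds the receptor gene Ccrl2, 9 were. None was lower, and the list medians were 2.15 and 2.47. The neutrophil attractants Cxcl1 (chr5:90891245-90893121) and Cxcl2 (chr5:90903899-90905938) showed the largest differences. Cxcl1 levels were 8.14 to 8.29 without LPS (median 8.20) and 13.32 to 14.03 at 1 h (median 13.66), those of Cxcl2 9.84 to 9.90 (median 9.88) and 14.99 to 15.46 (median 15.23). Neither gene showed any overlap, and the differences were 5.45 ± 0.132 (SE, adjusted p = 7.71e-39) and 5.35 ± 0.102 (SE, adjusted p = 2.06e-43). Their neighbour Cxcl3 (chr5:90786101-90788093) was higher by 3.84 ± 0.145 (SE, adjusted p = 4.36e-30), from a median of 4.38 (4.06 to 4.57) to 8.26 (7.69 to 8.68). Cxcl10 and Cxcl11, which attract T cells and are known as interferon targets, were higher by 3.09 and 1.22, while Cxcl16 (0.87), Cxcl9 (0.40) and Pf4 (0.07) did not pass. Cxcl11 was not called in replicates 7 to 9 alone (0.91, adjusted p = 0.119, limma). Among the CC list, Ccrl2, a receptor that binds the attractant chemerin, Ccl3, Ccl22, and Ccl4 differed by 3.20, 3.19, 3.18, and 3.01. The annotated spans of Ccl3 and Ccl4 overlap, so how their reads were divided is uncertain. The monocyte attractants Ccl2, Ccl7, and Ccl12, adjacent on chromosome 11, were higher by 2.46, 2.48, and 2.72.

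Some of the higher genes were neighbours. Of 378 with a position, 64 (16.9%) lay beside another higher gene among the genes tested, against 6.18% of all 11841 genes tested with a position. Runs of 3 such genes were Il1a, Il1b, and Il1bos on chromosome 2, Cxcl3, Cxcl1, and Cxcl2 on chromosome 5, Cxcl10, Cxcl11, and Nup54 on chromosome 5, and Ccl2, Ccl7, and Ccl12 on chromosome 11. The higher genes were also short. Their median span was 14.5 kb and their median number of exons 5, against 22.6 kb and 9 exons over the genes tested, and 6.74% against 2.59% had a single exon (GENCODE transcripts, found for 97.6% of the higher genes).

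The promoters of the 3 adjacent CXC genes are shown because these neighbours moved together, and those of Il1b, Tnf, and the NF-κB inhibitor gene Nfkbia because they hold the same letters in other places or not at all. Each is the 250 bases before the annotated start (RefSeq, GRCm38.p6, the build mm10 of the files), 5′ to 3′ on the strand of the gene. For Il1b the start used lies inside the gene span given above, so its window overlaps the end of that span. The motifs were chosen with earlier results known. Capitals mark a form of the NF-κB site, GGG and TTTCC parted by any 2 bases, and the TATA box letters TATAAA, both searched on both strands. No marked matches overlap. Of 32851 RefSeq promoters cut to the same length, 1.41% held this NF-κB form and 12.4% held TATAAA. Of the 9526 promoters of genes tested, 1.45% and 6.20% did.
Cxcl3 (chr5:90785851-90786100, plus strand): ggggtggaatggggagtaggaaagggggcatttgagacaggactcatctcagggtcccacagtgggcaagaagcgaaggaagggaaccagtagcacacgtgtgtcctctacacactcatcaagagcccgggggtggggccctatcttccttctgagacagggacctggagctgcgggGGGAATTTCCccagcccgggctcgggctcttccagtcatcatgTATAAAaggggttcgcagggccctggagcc
Cxcl1 (chr5:90890995-90891244, plus strand): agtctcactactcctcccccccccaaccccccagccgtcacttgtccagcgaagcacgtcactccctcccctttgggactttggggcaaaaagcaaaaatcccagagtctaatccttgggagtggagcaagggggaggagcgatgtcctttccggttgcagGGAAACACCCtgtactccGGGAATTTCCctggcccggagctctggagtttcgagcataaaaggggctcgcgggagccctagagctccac
Cxcl2 (chr5:90903649-90903898, plus strand): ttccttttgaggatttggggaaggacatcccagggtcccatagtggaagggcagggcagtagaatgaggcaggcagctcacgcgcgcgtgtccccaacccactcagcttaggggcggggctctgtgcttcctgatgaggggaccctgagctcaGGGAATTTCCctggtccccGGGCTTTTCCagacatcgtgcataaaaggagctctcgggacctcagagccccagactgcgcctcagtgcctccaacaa
Il1b (chr2:129371140-129371389, minus strand): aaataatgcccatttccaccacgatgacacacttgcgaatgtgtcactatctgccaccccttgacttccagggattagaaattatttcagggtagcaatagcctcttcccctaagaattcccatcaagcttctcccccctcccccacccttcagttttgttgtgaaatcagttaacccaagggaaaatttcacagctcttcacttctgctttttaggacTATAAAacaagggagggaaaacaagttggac
Tnf (chr17:35202008-35202257, minus strand): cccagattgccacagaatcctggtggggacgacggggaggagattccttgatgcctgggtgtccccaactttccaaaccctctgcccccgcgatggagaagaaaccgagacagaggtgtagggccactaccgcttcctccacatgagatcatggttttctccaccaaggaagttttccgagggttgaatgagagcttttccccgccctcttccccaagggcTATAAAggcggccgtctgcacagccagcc
Nfkbia (chr12:55492648-55492897, minus strand): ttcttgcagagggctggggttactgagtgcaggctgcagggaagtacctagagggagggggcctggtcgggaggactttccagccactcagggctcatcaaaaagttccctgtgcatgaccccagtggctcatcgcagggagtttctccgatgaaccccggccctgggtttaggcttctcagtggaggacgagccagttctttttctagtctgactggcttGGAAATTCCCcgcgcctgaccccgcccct

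The Cxcl1 and Cxcl2 windows held 2 matches each to the NF-κB form and that of Cxcl3 and Nfkbia 1 each, while the windows of Il1b and Tnf held no match to these exact letters. TATAAA was found in the windows of Cxcl3, Il1b, and Tnf. A match is a description of the sequence and not a shown binding site. No share of motifs is given over the higher genes, because a promoter was found for 300 of the 380 (78.9%), under the 80% taken as enough for such a check.

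NF-κB is a dimer of Rel proteins held in the cytosol by IκB proteins, and many of its own subunits and inhibitors are its targets. Of the 5 subunit genes, Rel, Relb, and Nfkb2 were higher, by 2.63 ± 0.084, 1.44 ± 0.046, and 1.43 ± 0.055 (SE), while Rela (0.96) and Nfkb1 (0.63) stayed under the difference of 1. Rel levels were 8.94 to 9.20 without LPS (median 9.04) and 11.43 to 11.89 at 1 h (median 11.68). All 5 had an adjusted p below 0.05 (limma), as 23.8% of the genes tested did in this direction. The IκB list had 6 of 7 members higher and a median of 2.43. Nfkbiz (IκBζ, a nuclear co-activator) and Nfkbia (IκBα, the classical inhibitor) varied little among replicates. Nfkbiz went from 10.57 to 10.68 (median 10.64) to 15.05 to 15.18 (median 15.13). Nfkbia (chr12:55489409-55492647) went from 11.67 to 11.77 (median 11.72) to 15.06 to 15.26 (median 15.13), and neither gene's groups overlapped. The differences were 4.49 ± 0.099 (SE, adjusted p = 1.32e-40) and 3.42 ± 0.061 (SE, adjusted p = 1.04e-44). Nfkbid, Nfkbie, Nfkbib, and Bcl3 were higher by 3.01, 2.43, 2.10, and 1.77, and Nfkbil1 differed by -0.21.

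Among 11 further genes listed for feedback on NF-κB signalling, not all of them established inhibitors, 7 were higher and none lower. Tnfaip3 (chr10:19000910-19015410), which encodes the ubiquitin-editing enzyme A20, was at 11.59 to 11.76 without LPS (median 11.67) and at 15.50 to 15.59 at 1 h (median 15.57). The libraries at 1 h were nearly equal, and the difference was 3.88 ± 0.118 (SE, adjusted p = 2.28e-34). Tnfaip2, Tnip3, Traf1, Tnip1, Tank, and Peli1 were higher by 1.15 to 2.74, while the deubiquitinase gene Cyld differed by 0.05. In replicates 7 to 9 alone Tank (0.97) and Peli1 (0.80) were not called. The receptor end of the pathway differed less. Of 23 genes for TLR4, its co-receptors, adaptors and kinases, Cd14 (1.58 ± 0.072, SE) and Irak2 (1.09 ± 0.061, SE) were higher, and the median was 0.25. Irak2 was not called after quantile normalization (0.97) or in replicates 7 to 9 alone (0.92). Tlr4 itself went from 11.65 to 11.86 to 11.19 to 11.55, without overlap, a difference of -0.39 ± 0.060 (SE, adjusted p = 1.56e-07, limma) that did not reach a size of 1. Ticam1, the gene of TRIF, differed by 0.97, Myd88 by 0.56, and Ly96, the gene of MD-2, by 0.11. Among 9 other Toll-like receptors, Tlr2, which senses bacterial lipoproteins, was higher by 2.18 ± 0.105 (SE), with 10.64 to 10.95 without LPS and 12.52 to 13.38 at 1 h.

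Immediate early genes are induced within minutes by factors that include SRF and its partners, the ternary complex factors ELK1 and ELK4. Of 19 genes in a list that holds both these factors and immediate early genes, 11 were higher and none lower, with a median of 1.25. Egr1, a zinc finger factor, went from 7.70 to 8.33 (median 8.02) to 11.19 to 11.62 (median 11.36), and Egr3 from 6.81 to 7.20 (median 6.96) to 9.79 to 10.21 (median 10.04). Both groups of both genes were apart, and the differences were 3.41 ± 0.135 and 3.03 ± 0.134 (SE). Nr4a1, Ier3, Egr2, and Nr4a3 were higher by 3.04, 2.58, 2.43, and 2.05. The genes of the upstream factors differed little, with Srf at 0.35, Elk4 at 0.32, and Elk1 at 0.26.

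Among the AP-1 genes, 6 of 15 were higher, against 3.20% of all genes tested. All 15 had a positive difference with an adjusted p below 0.05 (limma), as 23.8% of all genes tested did. Maff, a small Maf protein, Junb, and Jdp2, a repressor that pairs with Jun proteins, were higher by 4.25 ± 0.135, 2.87 ± 0.076, and 2.57 ± 0.068 (SE). Fosb was higher by 1.84. Fos and Jun, the founding pair, differed by 0.85 ± 0.094 and 0.37 ± 0.086 (SE) and were not called, although the Fos groups, 10.34 to 10.98 and 11.17 to 11.85, did not overlap. Of 21 other inducible regulators 8 were higher, led by Kdm6b, a histone H3 demethylase, at 4.64 ± 0.140 (SE), Id3 at 2.85, Irf1 at 2.69, and Myc at 1.76. Cebpa, a myeloid lineage factor, differed by -0.92.

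Genes whose products end MAP kinase signalling moved in both directions. Of 16 phosphatases and ERK pathway inhibitors, 9 were higher and 1 was lower, with a median of 1.23. Errfi1, an inhibitor of the EGF receptor, went from a median of 8.60 (8.58 to 8.75) to 13.29 (13.11 to 13.44), a difference of 4.66 ± 0.155 (SE, adjusted p = 1.15e-32). The phosphatase genes Dusp2, Dusp5, and Dusp1 were higher by 4.12, 3.38, and 2.63, and Spry1, an inhibitor upstream of ERK, by 3.40. Dusp6, which encodes a cytosolic ERK phosphatase, was the lower member, at -1.28 ± 0.086 (SE, adjusted p = 4.19e-19). None of the 15 MAP kinase genes themselves was called. With 4.14% of all genes tested called, a list of this size may hold none. The largest differences were those of Map2k3 (0.85) and Map3k8, the gene of TPL-2 (0.62 ± 0.054, SE). Against 3.20% of all genes tested, 5 of 13 genes for proteins of mRNA decay and translation control were higher. These were Zc3h12c (3.29), Zfp36, the gene of tristetraprolin (2.81 ± 0.093, SE), Zc3h12a, the gene of regnase-1 (2.55), Zfp36l1 (1.35), and Btg1 (1.32). The other 8 were not called, among them Zfp36l2 at -0.85. In the Socs list, whose proteins inhibit cytokine receptors, Socs3 was higher by 5.13 ± 0.111 (SE, adjusted p = 6.82e-41), from 8.68 to 8.81 (median 8.74) to 13.69 to 14.09 (median 13.87), Cish by 2.95, and Socs1 by 1.53.

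**Figure D2:**
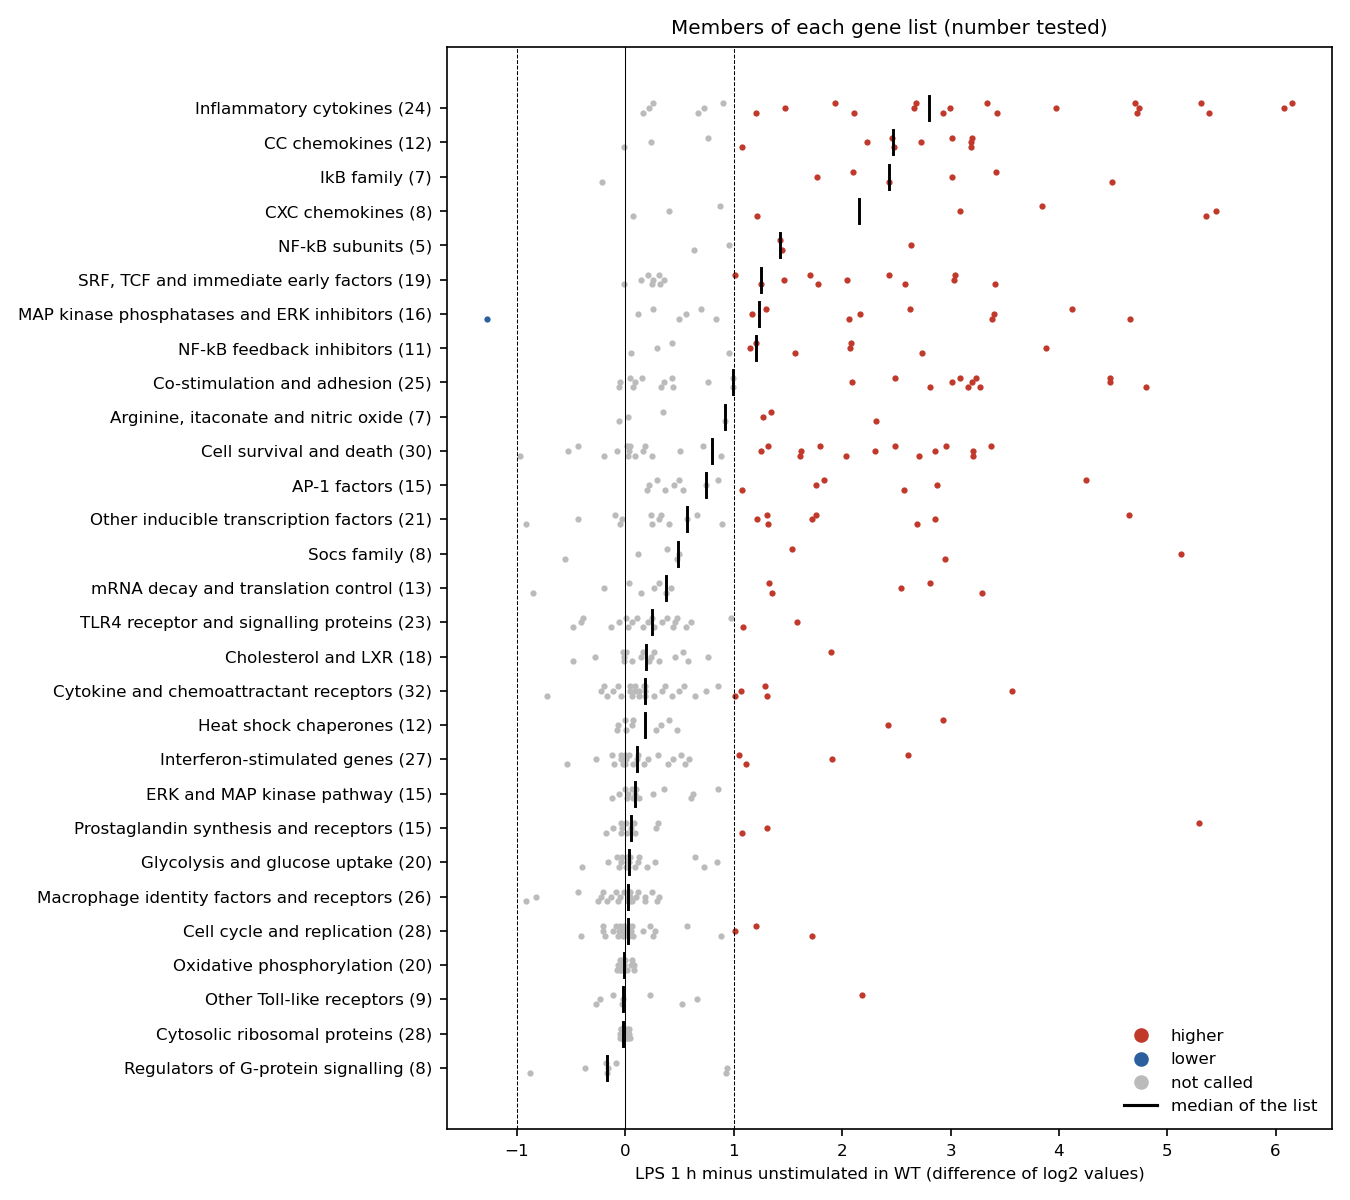
The difference at 1 h of LPS in WT macrophages (x axis, log2 values) for every tested member of 29 gene lists, 1 point per gene, red for called higher, blue for called lower and grey for not called, with a black bar at each list's median and the number tested in parentheses. Cytokines, chemokines and the IκB family lie to the right, with medians of 2.15 to 2.81, and ribosomal, respiratory and macrophage identity genes have medians near 0.

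Ptgs2 (chr1:150100031-150108234), which encodes COX-2, the inducible enzyme of prostaglandin synthesis, went from a median of 7.22 (7.07 to 7.30) to 12.50 (12.18 to 12.77), a difference of 5.29 ± 0.188 (SE, adjusted p = 2.8e-31). Ptges and Ptger4 were higher by 1.31 and 1.07, and the other 12 genes of the prostaglandin list were not called. Ptger4 was not called in replicates 7 to 9 alone (0.96). Of 25 co-stimulatory and adhesion genes 12 were higher, where 3.20% of all genes tested were. Olr1, a scavenger receptor, and Sele, the gene of E-selectin, differed by 4.81 and 4.47, and Cd83, Cd40, Vcam1, and Icam1 by 3.16 to 3.27. Cd80 (0.43) and Cd86 (-0.05), the classical ligands of CD28, were not called. Of 30 survival and death genes 14 were higher, among them Nlrp3, the inflammasome sensor (3.21), Pim1 (2.96), and the Bcl2-like genes Bcl2a1d (3.37) and Bcl2a1a (3.21), whose near-identical copies make the division of reads uncertain. The same holds for the heat shock genes Hspa1b (2.93) and Hspa1a (2.42). Gch1 and Sod2 were higher by 1.27 and 2.31, while Nos2, the inducible nitric oxide synthase gene, differed by 0.34 and had an adjusted p above 0.05. Irg1, the gene of the itaconate-forming enzyme, was missing from its list under its newer name Acod1 and was added after its value was seen. Its difference was 4.62 ± 0.148 (SE, adjusted p = 2.39e-33).

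Mir155hg (chr16:84713023-84715245), the host transcript of the microRNA miR-155, was higher by 4.93 ± 0.245 (SE, adjusted p = 1.14e-24). Its levels were 4.95 to 5.23 without LPS (median 5.11) and 9.33 to 10.64 at 1 h (median 10.01), with no overlap. The libraries measured the host transcript and not the mature microRNA. The 2 mature arms that it can yield (RefSeq, GRCm38.p6, plus strand) are shown as the product of this gene, with capitals at the seed, bases 2 to 8 from the 5′ end.
mmu-miR-155-5p (chr16:84714143-84714165): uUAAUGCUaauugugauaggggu
mmu-miR-155-3p (chr16:84714182-84714202): cUCCUACCuguuagcauuaac

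Of 32 cytokine and chemoattractant receptors 5 were higher, where 3.20% of all genes tested were. The 5 were Gpr84, a receptor for medium-chain fatty acids (3.56 ± 0.139, SE), Il17ra (1.31), Il10ra (1.29), Tnfrsf1b (1.07) and Fpr2 (1.02). The last 2 were not called in replicates 7 to 9 alone (0.98 and 0.97). Of 18 genes of cholesterol handling 1 was called, Ch25h, the gene of cholesterol 25-hydroxylase (1.89), a count near the share over all genes tested. By the adjusted p alone (limma) 10 of the 18 were higher and 2 lower, where 23.8% and 23.0% of all genes tested were. Of 28 cell cycle genes Cdkn1a (1.72), Mki67 (1.21) and Plk3 (1.01) were higher. Plk3 was not called in replicates 7 to 9 alone (0.89). None of 8 regulators of G-protein signalling was called, with differences from -0.88 (Rgs2) to 0.93 (Rgs1). With 4.14% of all genes tested called, so short a list may hold none.

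Of 27 interferon-stimulated genes tested, 4 were higher, where 3.20% of all genes tested were, namely Ifi205 (2.61), Gbp5 (1.91), Isg15 (1.11), and Oasl1 (1.05), and the list median was 0.11. In replicates 7 to 9 alone Isg15 (0.92) and Oasl1 (0.90) were not called. Ifit1 (0.55), Rsad2 (0.52), and Mx1 (0.00) were not called. No member of the lists of 20 glycolysis genes, 28 cytosolic ribosomal protein genes, 20 oxidative phosphorylation genes, or 26 macrophage identity genes was called, with medians of 0.03, -0.03, -0.01, and 0.03. With 4.14% of all genes tested called, lists of this size may hold few calls or none. By the adjusted p alone (limma), 5 glycolysis genes were higher and 1 lower, and 5 identity genes were higher and 6 lower. Of all genes tested 23.8% were higher and 23.0% lower by that rule. The differences of the ribosomal genes ran from -0.05 to 0.04. In the glycolysis list Slc2a1, the gene of GLUT1, Pfkfb3, and Hk2 differed by 0.84, 0.73, and 0.64. Of the identity genes Csf1r differed by 0.25.

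The lower genes were led by 2 arrestin-related genes. Arrdc3 (chr13:80883384-80896042), whose protein directs receptors to degradation, had levels of 11.27 to 11.52 without LPS (median 11.43) and 8.53 to 9.12 at 1 h (median 8.80). Txnip (chr3:96557957-96561857), which encodes an inhibitor of thioredoxin and of glucose uptake, had levels of 13.07 to 13.52 (median 13.44) and 10.99 to 11.34 (median 11.13). For both, each library at 1 h was below each unstimulated library, and the differences were -2.59 ± 0.125 (SE, adjusted p = 2.86e-25) and -2.23 ± 0.095 (SE, adjusted p = 1.02e-27). Angptl4, a secreted inhibitor of lipoprotein lipase, differed by -1.83, and Bmf, a BH3-only protein that promotes cell death, went from 8.34 to 8.76 (median 8.58) to 6.54 to 6.96 (median 6.84), a difference of -1.78 ± 0.102 (SE, adjusted p = 5.07e-22). The small co-chaperone gene Dnajc28 (-1.75) and 2810021J22Rik (-1.73) completed the 10 lowest with 4 zinc finger genes. Named after their values were seen, Cbx8 and Cbx2, which encode chromodomain subunits of Polycomb complexes, differed by -1.43 and -1.37.

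The genes whose symbol is Zfp and a number, a set chosen after its values were seen, mostly encode C2H2 zinc finger proteins, a large family that includes many KRAB-type repressors. Of 292 such genes tested 44 were lower (15.1%, against 0.942% of all genes tested), 5 were higher, and 219 had a negative difference with an adjusted p below 0.05 (limma), as 23.0% of all genes tested did. The set made up 39.3% of the lower genes and 2.46% of the genes tested, and its median difference was -0.47. The lower genes lay mostly at low levels, and the part of level in these shares was not tested. Zfp273 (chr13:67813816-67827000) went from 5.79 to 6.11 (median 5.97) to 3.92 to 4.14 (median 4.03). Zfp60 (chr7:27731409-27751689) went from 7.32 to 7.50 (median 7.43) to 5.39 to 5.74 (median 5.55). No library of one group reached the other, and the differences were -1.94 ± 0.083 (SE, adjusted p = 9.63e-28) and -1.87 ± 0.065 (SE, adjusted p = 7.89e-32). Zfp472 and Zfp763, both on chromosome 17, differed by -1.93 and -1.87. The 5 higher members were Zfp36, which is of another zinc finger class and binds mRNA, Zfp719 (1.85), Zfp263 (1.53), Zfp131 (1.28), and Zfp658 (1.16).

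Of the 44 lower members, 13 were among the 80 tested on chromosome 7, 10 among the 36 on chromosome 17, and 8 among the 27 on chromosome 13. Among all 112 lower genes 30 (26.8%) had a lower gene beside them among the genes tested, against 1.78% of all genes tested with a position. The longest runs were Zfp65, Zfp85, Zfp493, and Zfp273 (chr13:67705306-67827000), at -1.09, -1.56, -1.0003, and -1.94, and Zfp763, Zfp563, Zfp955a, and Zfp955b (chr17:33016864-33307239), at -1.87, -1.67, -1.28, and -1.29. The run on chromosome 13 needs Zfp493, which was not called without some single libraries, in replicates 4 to 6 alone (-0.97) or after quantile normalization (-0.97). Runs of 3 were Zfp120, Zfp937, and Zfp442 on chromosome 2 and Zfp623, Zfp707, and Ccdc166 on chromosome 15. Zinc finger genes of 1 cluster can be similar in sequence, so reads may have been divided among them. The lower genes had a median span of 12.7 kb and a median of 4 exons, and 10.2% had a single exon.

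**Figure D3:**
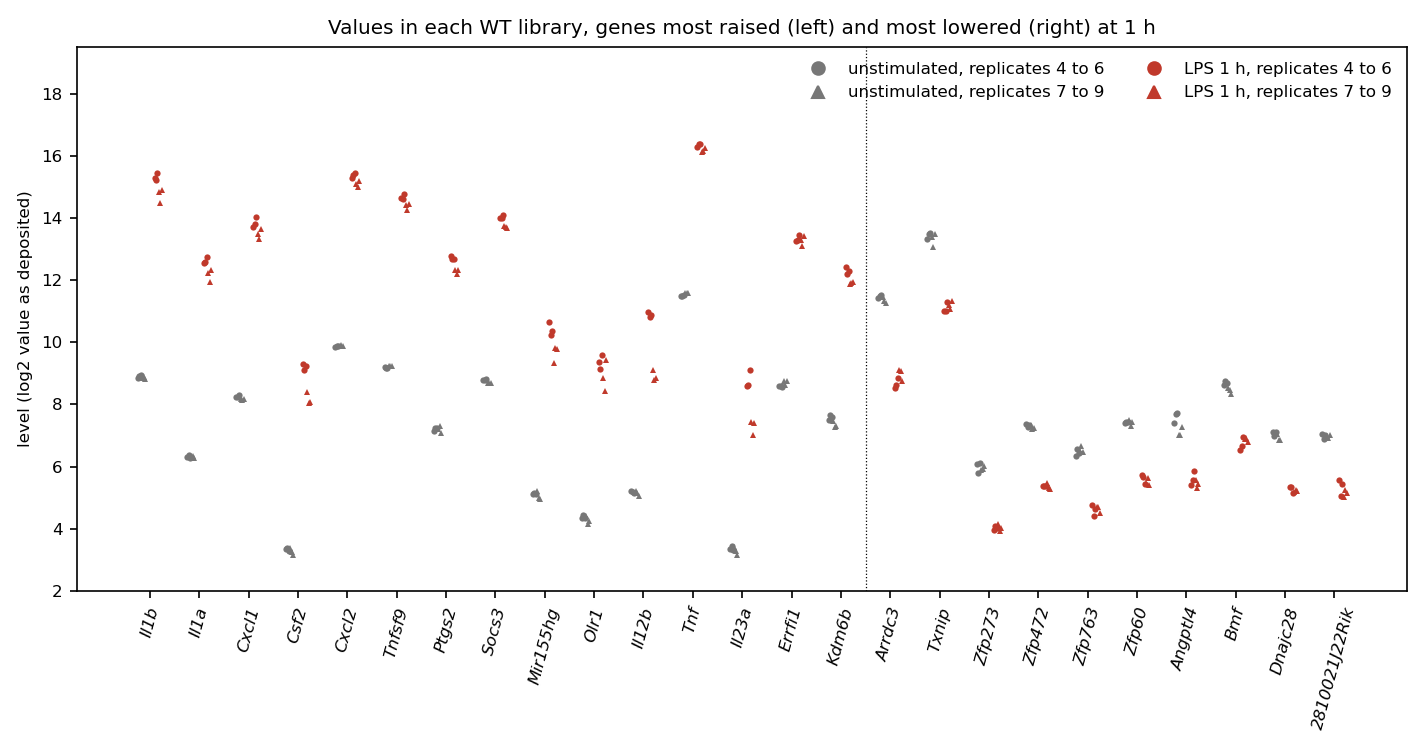
Levels (y axis, log2 values) of the 15 genes with the largest and the 10 with the most negative difference in each WT library, grey without LPS and red at 1 h, with circles for replicates 4 to 6 and triangles for replicates 7 to 9. The genes were chosen among those without overlap, so the colours do not overlap for any of them. For Il12b, Il23a and Csf2 the red circles lie above the red triangles.

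The 6 replicates fell into 2 sets. Over the genes tested, the first principal component of the 12 libraries (76.7% of the variance) separated LPS from no LPS, and the second (9.29%) separated replicates 4 to 6 from replicates 7 to 9 in both groups. The labels do not say what the sets are. All 380 higher and all 112 lower genes had the same direction in both sets. They were called on these same libraries, so this agreement was largely set by the calls. The median difference of the higher genes was 1.85 in replicates 4 to 6 and 1.59 in replicates 7 to 9, that of the lower genes -1.25 and -1.22. The sets differed by more than 0.5 for no lower gene, for 61 higher genes with the larger difference in replicates 4 to 6, and for 2, Sele and OTTMUSG00000016609, with the larger in replicates 7 to 9. Il12b showed the widest gap among the named genes. At 1 h its level was 10.97, 10.80, and 10.88 in replicates 4 to 6 and 9.10, 8.78, and 8.85 in replicates 7 to 9, from unstimulated levels of 5.04 to 5.21 in all 6. The difference was thus 5.71 in the first set and 3.78 in the second. Il23a gave 5.40 and 4.00, Il6 3.31 and 2.06, and Csf2 5.88 and 4.90. Sele gave 4.04 and 4.90. By comparison Nfkbia gave 3.44 and 3.39 and Nfkbiz 4.52 and 4.46. The replicates also spread more at 1 h. The median SD of the higher genes was 0.111 without LPS and 0.199 at 1 h, and 312 of the 380 had the larger SD at 1 h. The corresponding medians were 0.0848 and 0.0975 over all genes tested, and 0.0946 and 0.124 over the lower genes.

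To place 1 h within the time course, it was compared directly with 0.5 h. Between these times 275 genes were higher at 1 h (2.31%) and 98 lower (0.825%). The genes with the largest rise were Csf2 (4.47), Il12b (4.42), Plat, the gene of tissue plasminogen activator (4.27), Olr1 (4.17), and Il1a (4.08). At 0.5, 1, and 2 h, Il12b differed from unstimulated cells by 0.32, 4.74, and 7.88, and Plat by 0.25, 4.52, and 5.01. The genes that fell most between 0.5 and 1 h were Fos (-2.30), Arrdc3 (-2.14), Egr1 (-1.93), Zfp763 (-1.79), and Zfp60 (-1.74). At the same times Fos differed from unstimulated cells by 3.15, 0.85, and -1.55, and Egr1 by 5.34, 3.41, and 1.03, so the highest mean of both was at 0.5 h. For Jun the values were 1.55, 0.37, and -1.27. Nfkbia gave 3.17, 3.42, and 3.28 and Il10 2.71, 3.43, and 3.09. Tnf (3.81, 4.72, and 3.68), Cxcl2 (3.96, 5.35, and 3.16), and Csf2 (0.91, 5.39, and 2.78) had their highest mean at 1 h, whereas Cxcl10 (0.78, 3.09, and 6.00), Il6 (0.29, 2.68, and 5.16), and Gbp5 (0.01, 1.91, and 5.57) were higher again at 2 h. These 3 differences share the unstimulated libraries, and the 2 h group holds 4 libraries, of which 1 is from replicates 7 to 9.

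Of the 380 higher genes, 8 had their highest mean at 0.5 h, 142 had it at 1 h, and 230 had it at 2 h. The 8 were Btg2, Dusp1, Egr1, Fosb, Ier2, Ier3, Nr4a1, and Zfp36. The median difference of the 380 from unstimulated cells at these times was 0.33, 1.72, and 2.23. The lower genes followed another course. Their medians were -0.15, -1.22, and -0.79, and 85 of the 112 had their lowest mean at 1 h. Zfp60 gave -0.12, -1.87, and -0.70 and Txnip -0.49, -2.23, and -1.20, while Arrdc3 went on falling, with -0.45, -2.59, and -3.80. Since the genes were chosen at 1 h, their medians at that time are a description. The Zfp set as a whole had medians of 0.01, -0.47, and -0.30.

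**Figure D4:**
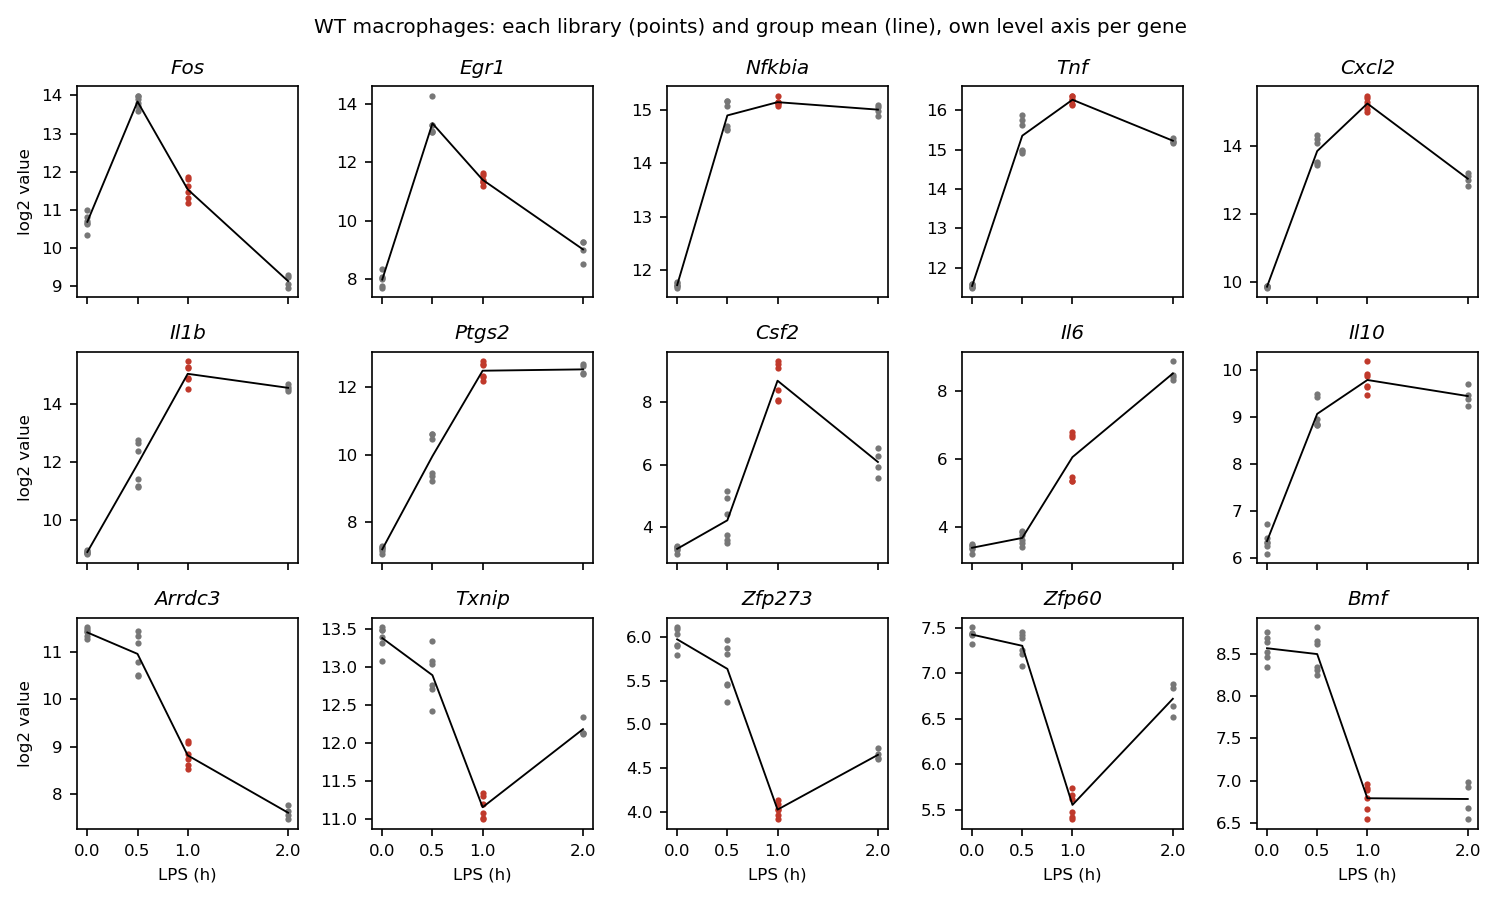
Levels (y axes, log2 values, own scale per gene) of 15 genes in WT macrophages against hours of LPS (x axis), with 1 point per library, red at 1 h, and a line through the group means. Fos and Egr1 are highest at 0.5 h, Tnf, Cxcl2 and Csf2 at 1 h and Il6 at 2 h, and Txnip, Zfp273 and Zfp60 are lowest at 1 h.

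The response at 1 h was set beside that of Map3k8 D270A cells, measured against their own unstimulated libraries, to ask which of its genes answered differently without TPL-2 activity. In the mutant 335 genes were higher (2.82%) and 72 lower (0.606%). The lists shared 312 higher genes, 82.1% of the WT list and 93.1% of the mutant list, and 68 lower genes, 60.7% and 94.4%. All WT higher genes except Rn45s and all WT lower genes had the same direction in the mutant, with medians of 1.46 and -1.06. The test of the difference between the responses was passed by 29 genes (0.244%), with an interaction below 0 for 27 (0.227%) and above 0 for 2 (0.0168%). Among the WT higher genes 23 responded less in the mutant and 1 more, and among the WT lower genes none passed. With the adjusted p alone (limma), 90 and 1 higher genes and 1 and 10 lower genes responded below and above WT, as 1.30% and 0.724% of all genes tested had interactions below and above 0.

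Egr1 had a difference of 3.41 in WT and of 0.00 in the mutant, an interaction of -3.41 (adjusted p = 5.31e-20). Egr3 gave 3.03 and 0.52 (-2.51, adjusted p = 1.39e-14), Lif 3.97 and 2.01 (-1.97, adjusted p = 8.2e-12), Il23a 4.70 and 2.86 (-1.85, adjusted p = 1.31e-05), and Serpinb2, the gene of a plasminogen activator inhibitor, 2.81 and 1.03 (-1.78, adjusted p = 1.3e-09). Ifnb1 was the WT higher gene that responded more, with 3.34 in WT and 4.60 in the mutant (1.26, adjusted p = 1.99e-06, limma). Il1b, Il1a, Csf2, and Ptgs2 responded less in the mutant, with interactions of -1.70 to -1.10, while Nfkbia (3.42 and 3.34), Nfkbiz (4.49 and 4.42), and Mir155hg (4.93 and 4.88) did not pass. Arrdc3 (-2.59 and -2.30) and Txnip (-2.23 and -2.01) did not pass either. The Zfp set had a median of -0.34 in the mutant, with 27 members called lower.

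**Figure D5:**
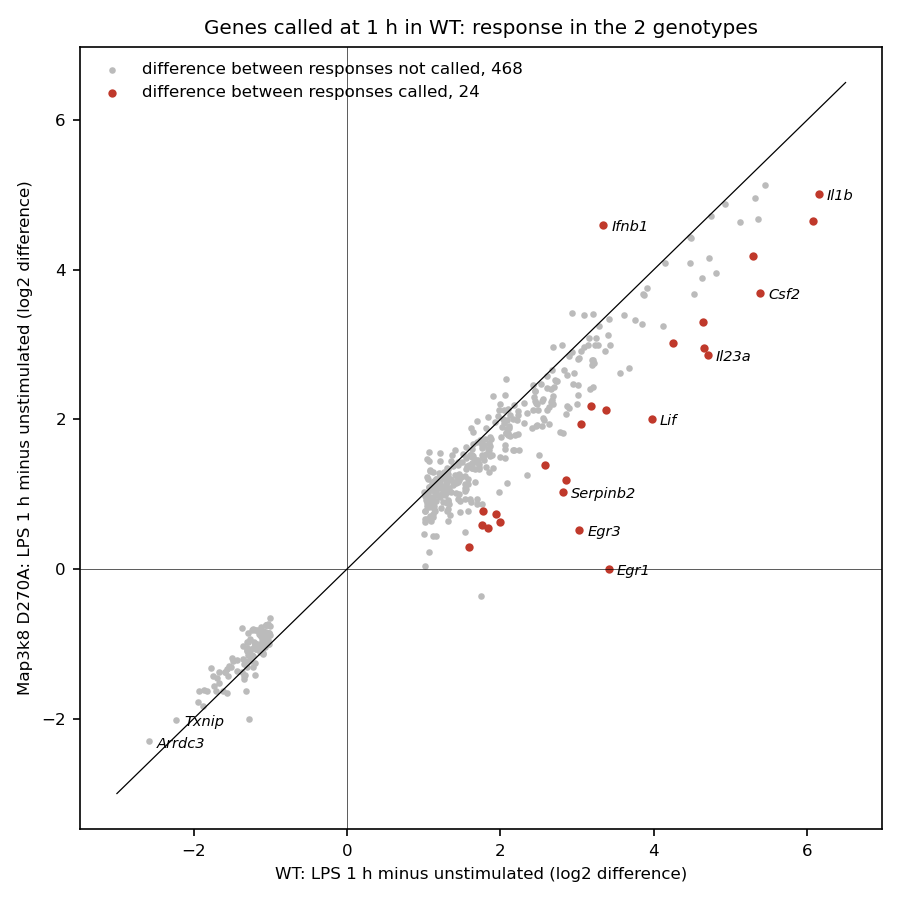
The difference at 1 h of LPS in Map3k8 D270A cells (y axis, log2 values) against that in WT cells (x axis, log2 values) for the 492 genes called in WT, in red the 24 whose responses differ by the interaction test and in grey the others, with a line of equal response. Most red points lie under the line, Egr1 on the zero line, and Ifnb1 above it.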

How the data were processed

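RNA of cultured BMDMs was sequenced from single ends by a strand-specific TruSeq protocol. Per the labels, the authors used STAR 2.5.1b, RSEM 1.2.29 and DESeq2 1.10.1 on the mouse build mm10, with versions from the submitters' processing notes. The study's methods give other versions of STAR and RSEM. The deposited table holds log2 values of 18098 genes in 119 libraries, normalised by the authors with a transformation not given in the sources used here. These are not counts, so limma 3.58.1 (R 4.3.3) was fitted to group means of 62 libraries of WT, Map3k8 D270A and Elk1-/-Elk4-/- cells, as their groups share 1 estimate of the spread. A gene was tested if 4 or more of the 62 libraries reached a linear value of 10 (11884 genes), and p values were adjusted by Benjamini-Hochberg over all of them. The 1 value in the table above 25, in none of the 12 libraries, was set missing. Calls needed a size of at least 1 and an adjusted p below 0.05. The script was tested on simulated data. The methods state a typical read yield, not the depth of each library, so precision rests on the replicates.

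Same-numbered libraries of the 2 groups deviated together, with correlations of 0.373 to 0.716 in all 6 pairs. Replicates 7 to 9 correlated best with their own number, at 0.484 to 0.716 against at most 0.331 with another. Replicates 4 and 5 correlated better with another number of their set (0.572), and replicate 6 about equally (0.556 against 0.541). Libraries of a set deviate together in any case, so these values do not show pairing by number for replicates 4 to 6. With the replicate number as a block, 380 genes were higher and 112 lower.

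Genes named by rule were the 15 highest and 10 lowest without overlap, up to 4 called members per list, 23 fixed genes, the 5 largest interactions in each direction with D270A where there were as many, and the 5 highest and 5 lowest against 0.5 h. Other genes were named after their values were seen. Some genes that the rule names are not reported here. The comparison, the lists and the motifs were chosen with earlier results of these data known. Positions and promoters came from RefSeq (GRCm38.p6), matched by symbol or synonym for all but 43 genes tested, and exons from GENCODE. Figures were drawn with matplotlib 3.10.9. Alternatives are given at the end.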

Additional observations from a re-analysis of the deposited data

Results flagged for a closer look

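In 8 of 364 groups of 6 libraries 1 library stood apart from the others, by a gap over range above Dixon's 95% critical value, which chance gives in about 1 of 20 groups. Of the 8, 7 were unstimulated groups. For Il12b, replicate 9 was lowest at 5.04 against 5.14 to 5.21 (0.626). For Nfkb1, replicate 7 was lowest at 11.27 against 11.33 to 11.35 (0.756), and for Ticam1 it was lowest at 9.55 against 9.63 to 9.67 (0.640). For Rn45s, replicate 7 was highest at 15.78 against 15.19 to 15.37 (0.690). For Cebpa, replicate 8 was lowest at 11.13 against 11.30 to 11.36 (0.718). Replicate 9 was highest for Hk2, at 9.67 against 9.33 to 9.43 (0.700), and for Map2k3, at 11.09 against 10.99 to 11.03 (0.632). At 1 h, replicate 4 was lowest for Rgs1, at 13.15 against 13.27 to 13.33 (0.674).

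The response at 1 h differed between Map3k8 D270A and WT cells by the interaction test (limma, adjusted p below 0.05 and a size of at least 1) for these named genes, given as the mutant difference minus the WT difference. Among immediate early and AP-1 factors it was -3.41 for Egr1, -2.51 for Egr3, -1.28 for Fosb, -1.26 for Fos, -1.23 for Maff, -1.19 for Ier3 and -1.10 for Nr4a1. Among cytokines and chemokines it was -1.97 for Lif, -1.85 for Il23a, -1.70 for Csf2, -1.43 for Il1a, -1.14 for Il1b and -1.001 for Ccl22, and 1.26 for Ifnb1. For the inhibitors Errfi1 and Dusp5 it was -1.71 and -1.26, and for Serpinb2, Kdm6b and Ptgs2 -1.78, -1.34 and -1.10.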

How the results depend on the processing

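The deposited scale limits the sizes. If the values were natural logarithms, a 2-fold change would lie at a difference of 0.69, and with that threshold 572 genes were higher and 337 lower. With the adjusted p alone 2832 were higher and 2732 lower, and 240 interactions with D270A passed. With limma's test against a difference of 1 (treat), 51 genes were lower and 282 higher. Under the other settings the counts stayed within 1.5 times. Leaving out 1 library at a time gave 371 to 393 higher and 109 to 123 lower genes, 261 to 290 and 91 to 103 against 0.5 h, and 26 to 31 interactions. Replicates 4 to 6 alone gave 426 and 146, and replicates 7 to 9 alone 336 and 111. Against 0.5 h, the sets alone gave 348 and 142, and 200 and 68, an alternative chosen after seeing the data, as was quantile normalization (363 and 107).

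With the replicate number as a block in the paired fit, 380 genes were higher and 112 lower, and against 0.5 h 274 and 98. Of the named genes, only Rn45s lost its call under this pairing (adjusted p = 0.0599, limma). Over 25 settings no direction of the 182 genes followed turned. In 73 of the comparisons, from 26 genes, a call was lost, and in 50, from 30 genes, one was gained. Calls were lost without single libraries for Rn45s (8 of the 12, to 1.29 without replicate 4 at 1 h, adjusted p = 0.168, limma), Zfp493 (7 of the 12, to -0.98 without replicate 6 at 1 h), Plk3 (0.98 to 0.999 without replicates 5, 6 or 8 at 1 h or unstimulated replicate 4), Oasl1 (0.96 to 0.996 without replicates 6 or 8 at 1 h or unstimulated replicate 9), Ccr3 (0.99 without unstimulated replicate 4) and Fpr2 (0.97 and 0.99 without unstimulated replicate 7 or replicate 5 at 1 h). In replicates 7 to 9 alone Irak2 (0.92), Tnfrsf1b (0.98), Ptger4 (0.96), Isg15 (0.92), Oasl1 (0.90), Plk3 (0.89), Cxcl11 (0.91, adjusted p = 0.119, limma), Peli1 (0.80), Tank (0.97), Fpr2 (0.97) and Rn45s (0.89, adjusted p = 0.557, limma) lost their calls. In replicates 4 to 6 alone Zfp493 (-0.97) and OTTMUSG00000016609 (adjusted p = 0.108, limma) did, and Rela (1.08) and Ticam1 (1.08) gained one. Quantile normalization ended the calls of Irak2 (0.97), Tnfrsf1b (0.76), Zfp493 (-0.97) and Rn45s (1.27, adjusted p = 0.102, limma) and gave one to Cebpa, Zfp36l2 and Rgs2 (-1.06, -1.05 and -1.05). Ticam1 was called, at 1.001 and 1.002, without replicates 7 or 9 at 1 h. Under treat, calls were lost for Irak2, Tnfrsf1b, Ptges, Ptger4, Isg15, Oasl1, Mki67, Plk3, Cxcl11, Nup54, Ccr3, Lrrc32 and Mmp14. They were also lost for Mt2, OTTMUSG00000016609, Peli1, Rn45s, Tank, Fpr2, Zfp65, Zfp120, Zfp442, Zfp493, Zfp658, Zfp707 and Zfp937. The depth of each library could not be read from the normalised values, so no limit from depth is given.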
